A study of Mus musculus with 4 samples.

Results

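DNA methylation is written by the DNMT enzymes, erased through oxidation by the TET enzymes and, at imprinted genes, held in place by dedicated protector proteins. The 10 genes described here are *Dnmt1* and *Uhrf1*, which maintain methylation after replication, *Dnmt3a*, *Dnmt3b* and *Dnmt3l*, which place new methylation, *Tet1* and *Tet2*, which oxidise methylcytosine, and *Dppa3*, *Zfp57* and *Trim28*, which shield methylated sites from loss. They were chosen by name, by a rule that uses no measured value, though with earlier results of these data known. All 10 were found as single rows among the 19645 features of the expression files. RNA was sequenced from undifferentiated mouse ESCs, which are cells derived from the early embryo that can give rise to every tissue of the body, after removal of ribosomal RNA. The series holds 2 libraries of WT ESCs and 2 libraries of *Bmal1* KO ESCs, and the question asked of the pair of genotypes was what the loss of BMAL1, a transcription factor of the circadian clock, does to ESC transcription. Both genotypes were grown on gelatin in medium with serum and LIF, the cytokine that holds mouse ESCs in the undifferentiated state. The KO cells are 1 line, picked as a colony after CRISPR/Cas9 editing of exon 5 of *Bmal1* (symbol *Arntl*), so that the effect of the edit and the differences between 1 line and the other cannot be told apart. The study's methods call the replicates biological, but neither they nor the labels say whether these were separate cultures or passages, and p-values measure the spread between these libraries of 1 line per genotype.

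In mammals, methyl groups are added to cytosines that stand before a guanine (CpG). UHRF1 binds hemimethylated CpGs behind the replication fork and brings in DNMT1, which copies the mark onto the new strand. DNMT3A and DNMT3B methylate unmodified DNA, and DNMT3L, which has no catalytic activity of its own, binds and stimulates them. ZFP57 binds a methylated motif in imprinting control regions and recruits TRIM28 (KAP1), a scaffold for heterochromatin proteins, so that only 1 parental copy of an imprinted gene stays active; imprints can drift when ESCs are kept in culture. DPPA3 (STELLA, PGC7) protects the maternal genome from oxidation in the zygote and, in other settings, keeps UHRF1 away from chromatin.

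Some features of the libraries stood apart by genotype. *Arntl* itself read 6.05 and 6.29 FPKM in WT and 5.95 and 5.92 FPKM in KO (limma log2 fold change -0.06, adjusted p = 0.750), and its transcript level does not check the frameshift named by the genotype. FPKM are fragments scaled to the length of the transcript and to the number of mapped fragments. They let genes be compared within a library, less surely where genes share an interval. Between libraries the comparison is approximate. The summed FPKM ranged from 840017 (KO replicate 2) to 1183010 (WT replicate 2). The median over tested features ranged from 8.86 (WT replicate 1) to 8.98 (KO replicate 2). Of 4 Y-linked genes, 3 were low in WT and clearly present in KO: *Eif2s3y* read 1.403 and 2.04 FPKM in WT against 44.6 and 53.1 in KO, *Ddx3y* 0.24 and 0.40 against 16.4 and 20.6, and *Uty* 0.11 and 0.10 against 3.58 and 5.16. The other, *Kdm5d*, stayed at or below 0.02 FPKM in each library of both genotypes. *Xist*, the RNA that silences an X chromosome in female cells, was low in all libraries, at 1.68 and 1.81 FPKM in WT and 1.53 and 1.43 FPKM in KO, in an interval that the files share with *Tsix*. X-linked and autosomal features had the same median log2 fold change of -0.02, over 428 and 12554 tested features. The Y-linked difference runs with the genotype in each library, and its part in the results that follow was not tested. The labels do not say that the KO line was made from the WT line that was sequenced, so every difference between KO and WT given here may include differences between the lines other than the edit. All 8 ESC markers were present, at 36.9 to 1620 FPKM, and summed to 3015 to 3140 FPKM in WT and 2802 to 2997 FPKM in KO. At an adjusted p under 0.05, 3 of the 8 passed the test (37.5%, against 12.5% of all tested features). *Klf4* was lower (log2 fold change -0.46, limma adjusted p = 0.0177), and *Tfcp2l1* (0.39, adjusted p = 0.0259) and *Fgf4* (0.30, adjusted p = 0.0493) were higher. Of 5 fibroblast markers found, 4 were below 1 FPKM in every library, and the fifth, *Thy1*, read 1.69 and 1.54 FPKM in WT and 2.73 and 2.11 FPKM in KO (log2 fold change 0.55, limma adjusted p = 0.120) and made up most of the sum of all 5 (1.72 to 1.97 in WT and 2.35 to 2.97 in KO). All 6 endoderm markers were below 1 FPKM (sums of 1.04 to 1.10 in WT and 1.396 to 1.56 in KO). They moved in both directions within the sum. *Sox7* read 0.26 and 0.25 FPKM in WT and 0.71 and 0.63 in KO, and *Gata4* 0.60 and 0.56 in WT and 0.53 and 0.44 in KO. Features without a gene symbol took 26.8% and 37.3% of the summed FPKM in WT and 18.96% and 18.14% in KO.

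All 10 genes were expressed above the filter of 0.5 mean FPKM, and their levels spanned a wide range. *Trim28* was the highest, at 932 ± 13.3 FPKM (SD, n = 2) in WT ESCs, at the 99.2 percentile of all features. *Dnmt3l*, *Zfp57*, *Uhrf1*, *Dnmt1*, *Dnmt3b*, *Tet1*, *Tet2* and *Dnmt3a* followed in that order, and *Dppa3* was the lowest, at 3.81 ± 0.51 FPKM (SD, n = 2), at the 55.7 percentile. In KO ESCs the order was the same except that *Zfp57* stood above *Dnmt3l* and *Tet1* stood above *Dnmt3b*. In both genotypes the libraries of each gene lay apart from those of the next gene in the order. Among the adjacent genes, the narrowest step was from *Dnmt1* to *Dnmt3b* in WT (1.09-fold) and from *Zfp57* to *Dnmt3l* in KO (1.09-fold).

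**Figure D1:**
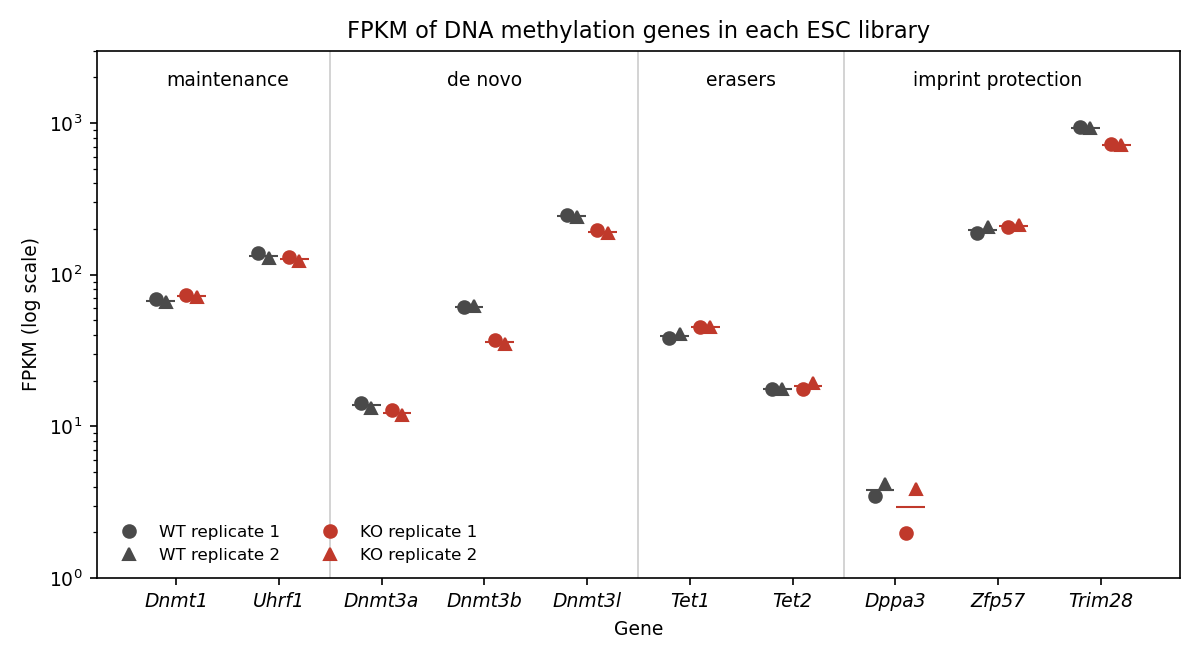
FPKM of the 10 genes (log axis) in the 2 WT libraries (grey) and the 2 *Bmal1* KO libraries (red), with circles for replicate 1, triangles for replicate 2 and a line at the mean of each genotype. *Dnmt3b*, *Dnmt3l* and *Trim28* sit lower in both KO libraries, and the 2 KO values of *Dppa3* lie far apart, at 1.99 and 3.84 FPKM.

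Of the 10 genes, 3 were lower in KO at an adjusted p under 0.05 (*Dnmt3b*, *Dnmt3l* and *Trim28*), 0 were higher and 7 did not pass. Across all 12990 tested features, 12.5% passed the same test, 6.85% as higher and 5.6% as lower in KO. None of the 10 changed by more than 2-fold, whereas 4.14% of all tested features passed the test with such a change, 2.72% upward and 1.42% downward; at an unadjusted p under 0.05 the limma count was 4 of the 10 genes, against 29.6% of all features. The KO libraries lay apart from the WT libraries for 7 of the 10 genes, 3 above and 4 below; over all features 58.8% lay apart, 27.0% above and 31.7% below. The median log2 fold change of the 10 genes was -0.11, and that of all tested features was -0.02. In these bulk libraries, fewer cells that express a gene and less RNA per cell cannot be told apart.

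**Figure D2:**
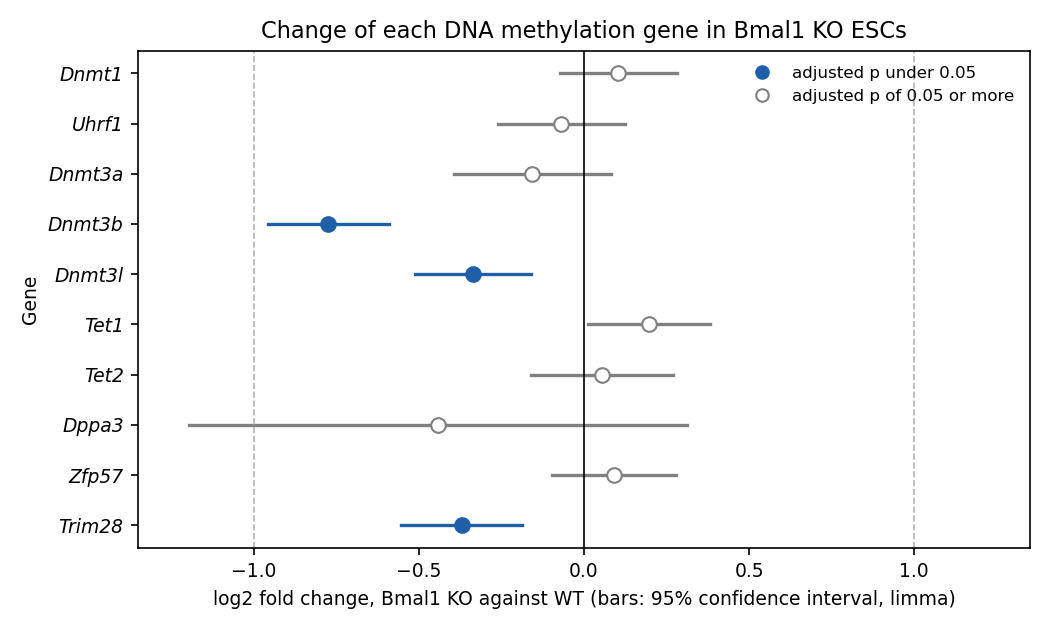
Log2 fold change of each gene in *Bmal1* KO against WT ESCs, with its 95% confidence interval from limma; filled points passed an adjusted p of 0.05 and dashed lines mark a 2-fold change. *Dnmt3b* lies farthest from 0, at -0.77, and *Dppa3* has the widest interval, from -1.20 to 0.31.

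The largest change that passed the test was that of *Dnmt3b*, the de novo methyltransferase most active in the early embryo. *Dnmt3b* (ENSMUSG00000027478.15; GRCm38, chromosome 2, plus strand, 153649450 to 153687730; 12 transcripts, 10 of them coding) read 61.3 and 62.0 FPKM in WT and 37.1 and 35.0 FPKM in KO. Both KO libraries were well below both WT libraries. The log2 fold change was -0.77 (SE 0.07, 95% confidence interval -0.96 to -0.59, limma adjusted p = 0.00522), and the mean fell by 41.6%. It passed the test under all 13 alternative settings, with log2 fold changes between -0.82 and -0.73. The 10 nearest tested genes on chromosome 2, 5 on each side, had a median log2 fold change of -0.01. Of them, 1 was higher and 0 were lower, against 6.85% and 5.6% of all features.

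*Dnmt3l*, the catalytically inactive partner of the de novo enzymes, was expressed at a level well above either of them. *Dnmt3l* (ENSMUSG00000000730.13; chromosome 10, plus strand, 78041947 to 78063622; 8 transcripts, 6 coding) read 246 and 239 FPKM in WT and 197 and 188 FPKM in KO. The KO libraries were again below the WT libraries, by a smaller margin. The log2 fold change was -0.34 (SE 0.07, 95% confidence interval -0.51 to -0.16, limma adjusted p = 0.0366), and the mean fell by 20.8%. The call was lost without the filter on low values (adjusted p = 0.0605), after quantile normalization (0.0754), without the variance trend (0.102) and whenever any 1 of the 4 libraries was left out (0.0731 to 0.135), although the direction held in each. In the files, *Dnmt3l* shares its interval, 78029519 to 78063622, with *Aire*, a transcription factor gene next to it, so how the reads of the region were divided between them is uncertain. *Aire* read 8.23 and 7.74 FPKM in WT and 5.57 and 4.07 FPKM in KO (log2 fold change -0.73, limma adjusted p = 0.0432).

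*Dnmt3a*, which encodes the de novo enzyme that prevails in differentiated cells, was the lowest of the writers. *Dnmt3a* (ENSMUSG00000020661.15; chromosome 12, plus strand, 3806007 to 3914443; 18 transcripts, 13 coding) read 14.3 and 13.1 FPKM in WT and 12.7 and 11.8 FPKM in KO. The groups did not overlap, but the gap between them was no wider than that between the replicates. The log2 fold change was -0.16 (SE 0.10, 95% confidence interval -0.39 to 0.08, limma adjusted p = 0.335).

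Because a ratio of FPKM within 1 library does not depend on the scaling of that library, the balance of related genes was also compared library by library. The ratio of *Dnmt3b* to *Dnmt3a* was 4.29 and 4.73 in WT and 2.91 and 2.96 in KO. Both KO values were lower, with a log2 difference of -0.62 (KO minus WT), and the mean ratio fell by 34.9%. The ratio of *Dnmt3l* to *Dnmt3a* was 17.2 and 18.2 in WT and 15.4 and 15.9 in KO, a log2 difference of -0.18. The ratios were not tested; with 2 libraries against 2, the smallest p that an exact permutation test allows is 0.333.

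**Figure D3:**
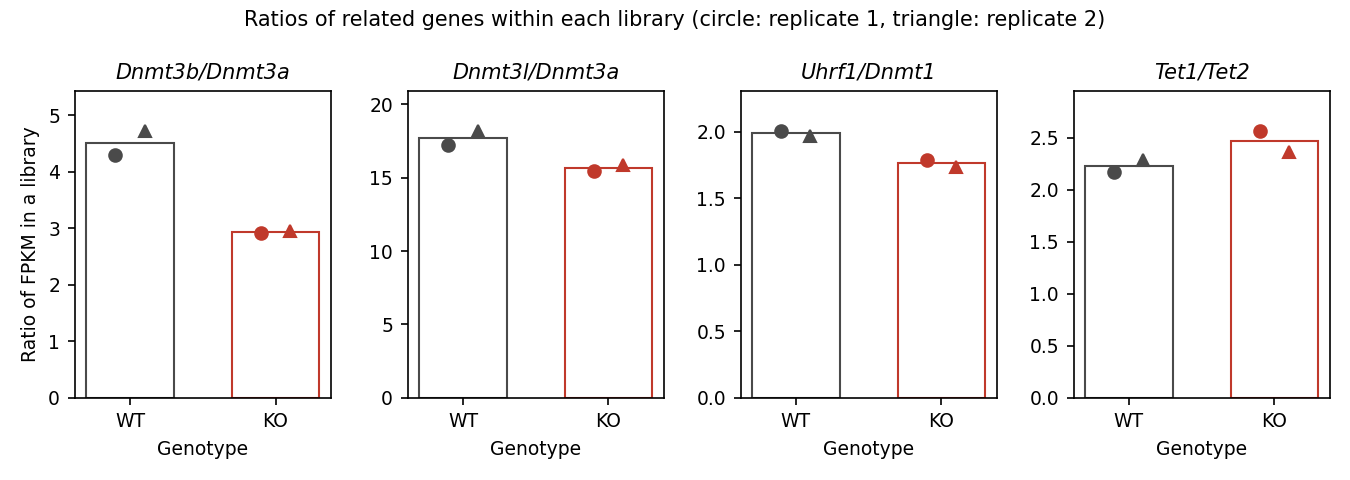
Ratios of FPKM of related genes within each library; bars start at 0 and show the mean of the 2 libraries of a genotype, with circles for replicate 1 and triangles for replicate 2. The ratio of *Dnmt3b* to *Dnmt3a* has the largest relative change (log2 difference -0.62), from 4.29 and 4.73 in WT to 2.91 and 2.96 in KO.

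The promoters of the 3 de novo genes are shown because CpG is the substrate of their own products and CACGTG (the E-box) is the motif that BMAL1 binds together with CLOCK. Each run gives, 5′ to 3′ on the plus strand, the 250 bases before a RefSeq transcript start on GRCm38.p6: chr2:153649199-153649448 for *Dnmt3b*, with each CpG in capitals, and chr12:3891494-3891743 for *Dnmt3a* and chr10:78049592-78049841 for *Dnmt3l*, with CACGTG in capitals.
Dnmt3b: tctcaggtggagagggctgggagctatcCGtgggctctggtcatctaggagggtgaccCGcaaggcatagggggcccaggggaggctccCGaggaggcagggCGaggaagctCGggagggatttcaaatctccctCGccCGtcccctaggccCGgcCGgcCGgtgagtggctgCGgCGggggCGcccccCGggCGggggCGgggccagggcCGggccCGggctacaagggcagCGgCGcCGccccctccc
Dnmt3a: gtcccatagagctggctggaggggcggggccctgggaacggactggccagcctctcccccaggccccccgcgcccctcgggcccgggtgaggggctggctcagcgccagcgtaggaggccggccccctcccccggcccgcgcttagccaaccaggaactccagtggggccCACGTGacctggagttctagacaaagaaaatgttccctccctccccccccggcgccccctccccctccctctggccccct
Dnmt3l: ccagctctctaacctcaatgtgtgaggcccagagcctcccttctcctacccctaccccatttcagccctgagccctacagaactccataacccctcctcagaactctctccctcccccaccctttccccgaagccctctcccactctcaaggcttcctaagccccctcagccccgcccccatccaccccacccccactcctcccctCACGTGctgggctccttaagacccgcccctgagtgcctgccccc
The *Dnmt3b* run holds 21 CpGs and no CACGTG, the *Dnmt3a* run 15 CpGs, and the *Dnmt3l* run 4 CpGs. CACGTG begins 80 bases before the start in *Dnmt3a* and 44 bases before it in *Dnmt3l*. Of 18 windows of 300 bases (250 before and 50 after a start) for 9 of the 10 genes, 2 (11.1%) held the motif, which reads the same on both strands; of all 32851 such windows, 7.15% held it. *Dnmt3a* and *Dnmt3l* each have other starts whose windows lack these letters, and the runs were chosen for the motif, not for CpG content: the other 2 windows of *Dnmt3a* hold 46 and 47 CpGs in 300 bases, against 30 in the *Dnmt3b* window and 18 in the *Dnmt3a* window shown. A match in a window is a description of the letters there, and no binding was measured.

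The maintenance genes did not pass the test. *Dnmt1* (ENSMUSG00000004099.16; chromosome 9, minus strand, 20907209 to 20959888; 7 transcripts, 4 coding) read 68.8 and 65.7 FPKM in WT and 73.4 and 71.1 FPKM in KO. Both KO libraries were slightly above both WT libraries, by less than the gap between the WT replicates. Its log2 fold change was 0.10 (SE 0.07, 95% confidence interval -0.07 to 0.28, limma adjusted p = 0.388). *Uhrf1* (ENSMUSG00000001228.14; chromosome 17, plus strand, 56303321 to 56323486; 7 transcripts, 5 coding) read 138 and 129 FPKM in WT and 131 and 123 FPKM in KO, and the groups overlapped. Its log2 fold change was -0.07 (SE 0.08, 95% confidence interval -0.26 to 0.12, limma adjusted p = 0.603), and it was 0.015 after quantile normalization. The ratio of *Uhrf1* to *Dnmt1*, the recruiter to the enzyme, was 2.01 and 1.96 in WT and 1.79 and 1.73 in KO, so that both KO ratios were lower (log2 difference -0.17).

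Neither eraser passed the test. *Tet1*, the main TET gene of undifferentiated ESCs (ENSMUSG00000047146.17; chromosome 10, minus strand, 62804570 to 62908996; 10 transcripts, 8 coding), read 38.2 and 40.6 FPKM in WT and 45.1 and 45.2 FPKM in KO. Both KO libraries were above both WT libraries, and the KO values were nearly identical. The log2 fold change was 0.20 (SE 0.08, 95% confidence interval 0.01 to 0.38), with an unadjusted p under 0.05 and a limma adjusted p of 0.148. *Tet2* (ENSMUSG00000040943.12; chromosome 3, minus strand, 133463679 to 133545139; 10 transcripts, 4 coding) read 17.6 and 17.7 FPKM in WT and 17.5 and 19.2 FPKM in KO, and the groups overlapped. Its log2 fold change was 0.05 (SE 0.09, 95% confidence interval -0.16 to 0.27, limma adjusted p = 0.715), and it was -0.0086 without KO replicate 2. The ratio of *Tet1* to *Tet2* was 2.17 and 2.29 in WT and 2.57 and 2.36 in KO (log2 difference 0.14). Of the 10 genes nearest to *Tet1*, 3 were lower in KO and 0 were higher, with a median log2 fold change of -0.21. Over all features, 5.6% were lower and 6.85% higher. Other members had such neighbours too: 2 of the 10 nearest to *Dppa3* were lower, and 2 of the 10 nearest to *Uhrf1* were higher.

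Among the protectors, *Trim28* was lower in KO ESCs. *Trim28* (ENSMUSG00000005566.14; chromosome 7, plus strand, 12999114 to 13031035; 10 transcripts, 1 coding) read 941 and 923 FPKM in WT and 724 and 718 FPKM in KO. The replicates lay close together and the KO values were well below the WT values. The log2 fold change was -0.37 (SE 0.07, 95% confidence interval -0.55 to -0.19, limma adjusted p = 0.0306), and the mean fell by 22.7%. The call was lost without the filter on low values (adjusted p = 0.0681), after quantile normalization (log2 fold change -0.25, adjusted p = 0.146), without the variance trend (0.0785) and whenever any 1 library was left out (0.0708 to 0.0952), with the direction kept in each. The 10 genes nearest to *Trim28* had a median log2 fold change of -0.18, and 0 of them passed the adjusted test, against 12.5% of all features.

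*Zfp57*, which encodes the KRAB zinc finger protein that brings TRIM28 to imprinting control regions, did not pass. *Zfp57* (ENSMUSG00000036036.15; chromosome 17, plus strand, 37001163 to 37010635; 13 transcripts, 10 coding) read 189 and 205 FPKM in WT and 207 and 212 FPKM in KO. The KO libraries were above the WT libraries, but by less than the gap between the WT replicates. Its log2 fold change was 0.09 (SE 0.08, 95% confidence interval -0.10 to 0.28, limma adjusted p = 0.476). Its row in the files starts upstream of the annotated gene, at 36990735.

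*Dppa3* (ENSMUSG00000046323.8; chromosome 6, plus strand, 122626410 to 122630272; 2 transcripts, 2 coding), a gene expressed in a fraction of serum-grown ESCs, was the least certain of the 10. It read 3.45 and 4.18 FPKM in WT and 1.99 and 3.84 FPKM in KO. KO replicate 1 was low and KO replicate 2 lay within the WT values, so the groups overlapped. The log2 fold change was -0.44 (SE 0.31, 95% confidence interval -1.20 to 0.31, limma adjusted p = 0.386). Without KO replicate 1 it was 0.017, and without KO replicate 2 it was -0.90 (adjusted p = 0.0222), so a single library decides its direction.

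The 10 genes act with a larger set of factors, and 71 of these were listed by role, of which 68 could be tested. In KO, 7 were higher and 5 were lower at an adjusted p under 0.05, together 17.6% of those tested against 12.5% of all features, and their median log2 fold change was -0.01. Of 16 partners of the writers, 0 were higher and 3 were lower (18.8%, against 12.5% of all features), with a median of -0.14. *Uhrf2*, the paralogue of *Uhrf1*, read 13.3 and 14.6 FPKM in WT and 9.30 and 10.1 in KO (log2 fold change -0.52, limma adjusted p = 0.0293). *Pclaf*, which encodes a PCNA-bound replication factor, fell by 0.56 on the log2 scale (adjusted p = 0.0240). *Cdca7l*, a relative of the *Cdca7* gene that works with the remodeller HELLS, fell by 0.60 (adjusted p = 0.0254). *Hells* itself read 97.7 and 124 FPKM in WT and 84.1 and 109 in KO, with overlapping groups (log2 fold change -0.20, adjusted p = 0.454). *Prdm14*, a repressor of the de novo methyltransferase genes in naive cells, read 10.1 and 9.92 FPKM in WT and 8.32 and 8.06 in KO (log2 fold change -0.29, adjusted p = 0.102). *Uhrf2* did not pass without WT replicate 2 (log2 fold change -0.45, adjusted p = 0.0693) or KO replicate 1 (-0.45, adjusted p = 0.0746), nor did *Cdca7l* without KO replicate 1 (-0.48, adjusted p = 0.0555), and none of the 3 passed without the filter or without the variance trend. In the files the intervals of *Cdca7l*, *Pclaf*, *Tet3*, *Setdb1*, *Mat2a* and *Idh2* are each shared with at least 1 other gene, so the division of reads there is uncertain; *Pclaf* has 2 rows under its older symbol *2810417H13Rik*, of which the higher is given.

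Of 17 tested genes of demethylation and base excision repair, 3 were higher and 1 was lower (23.5%, against 12.5% of all features), with a median log2 fold change of 0.14. *Tet3*, the TET gene of the oocyte and of differentiated cells, was the only 1 of the 68 to pass both the test and a 2-fold change. Over all tested features, 4.14% passed both. *Tet3* read 0.82 and 0.57 FPKM in WT and 1.72 and 1.51 in KO (log2 fold change 1.12, SE 0.24, limma adjusted p = 0.0401). Even so, its KO level stayed far below those of *Tet1* and *Tet2*. The change of *Tet3* did not pass without the filter, without KO replicate 1 (log2 fold change 1.03) or without KO replicate 2 (1.20), and it was 0.62 with a pseudocount of 1. *Neil2*, a DNA glycosylase, read 3.13 and 2.65 FPKM in WT and 5.83 and 5.20 in KO (log2 fold change 0.91, adjusted p = 0.0157).

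Among 8 tested readers of methylated DNA, 1 (12.5%, the same share as over all features) was higher, the zinc finger gene *Zbtb38* (log2 fold change 0.71, limma adjusted p = 0.0266). Of 17 genes of KRAB-directed silencing and heterochromatin, 1 was higher and 0 were lower, a share of 5.88% against 12.5% of all features: *Atf7ip*, the partner that stabilises the histone methyltransferase SETDB1, rose by 0.48 (adjusted p = 0.0352). *Setdb1*, which TRIM28 recruits, read 35.1 and 36.1 FPKM in WT and 41.7 and 40.4 in KO (log2 fold change 0.21, adjusted p = 0.1298). *Zfp445*, which acts at imprints beside *Zfp57*, read 22.2 and 25.2 FPKM in WT and 21.9 and 25.4 in KO and overlapped (log2 fold change -0.0068, adjusted p = 0.9747). *Atf7ip* did not pass without WT replicate 1 (log2 fold change 0.40) or without KO replicate 2 (0.43), and *Zbtb38* did not pass without KO replicate 2 (0.64); neither passed without the filter, and *Atf7ip* did not pass without the variance trend (adjusted p = 0.0764).

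Of 10 genes that supply the methyl donor or the TET co-substrate, 2 were higher and 1 was lower (30.0%, against 12.5% of all features). *Mat2a*, which makes S-adenosylmethionine, read 136 and 139 FPKM in WT and 185 and 189 in KO (log2 fold change 0.44, limma adjusted p = 0.0156). *Ahcy*, which removes the product S-adenosylhomocysteine, read 182 and 164 FPKM in WT and 123 and 123 in KO (log2 fold change -0.49, adjusted p = 0.0181). *Idh2*, the mitochondrial enzyme that makes 2-oxoglutarate, read 51.4 and 51.0 FPKM in WT and 89.6 and 84.7 in KO (log2 fold change 0.76, adjusted p = 0.00522). Without the variance trend, *Mat2a* (adjusted p = 0.0576) and *Ahcy* (adjusted p = 0.0615) did not pass.

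**Figure D4:**
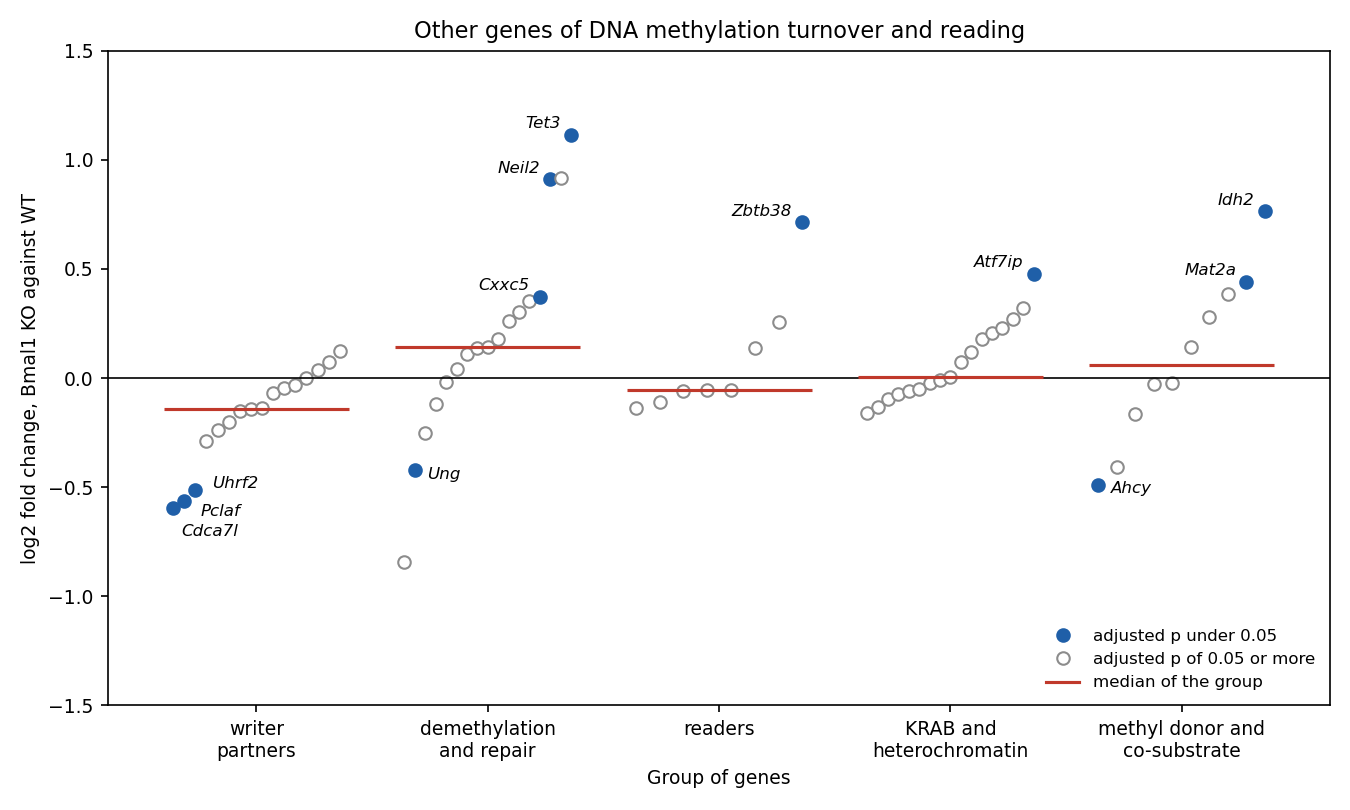
Log2 fold change in *Bmal1* KO against WT ESCs of 68 tested genes that act with the DNA methylation enzymes, in 5 groups by role, with genes in order of their change within each group, filled points at an adjusted p under 0.05 and a red line at each median. The 3 filled points among writer partners are all below 0, and *Tet3* stands highest, at 1.12.

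Genes whose expression depends on DNA methylation were read beside the enzymes, with no measurement of methylation itself. Of 35 imprinted genes found, 10 were below the filter and were not tested, with KO means above WT for some and below for others. Of the 25 tested, 11 were higher in KO and 2 were lower (52.0%, against 12.5% of all features: 6.85% higher and 5.6% lower), with a median log2 fold change of 0.41. The largest was *Mest*, at 1.55 and 1.92 FPKM in WT and 43.0 and 44.4 in KO (log2 fold change 4.58, limma adjusted p = 0.000518), in an interval that the files share with *Copg2*. *Igf2*, a fetal growth factor gene, read 0.26 and 0.23 FPKM in WT and 1.61 and 2.13 in KO, in an interval shared with *Igf2os*. Its log2 fold change was 2.52, or 1.20 with a pseudocount of 1. *Igf2* and *Plagl1*, with WT means of 0.24 and 0.49 FPKM, passed the filter only through their KO values. Both are among the 11 higher genes. *Ndn* changed by 1.95 (limma adjusted p = 0.00473) and the cell cycle inhibitor gene *Cdkn1c* by 1.59 (adjusted p = 0.00169). The paternally expressed genes counted 5 higher and 2 lower of 15 (46.7%), and the maternally expressed genes 6 higher and 0 lower of 10 (60.0%). Several of the maternally expressed genes lie close together on chromosome 7 or chromosome 12, so the genes counted may not change independently. The imprinted list was also made with earlier results of these data known, so its share is a description only. Of 17 germline genes of the kind silenced by promoter methylation, 14 could be tested. Among the 14, 1 was higher and 2 were lower (21.4%, against 12.5% of all features), with a median of 0.00. The higher gene, *Rpl10l*, read 97.5 and 105 FPKM in WT and 148 and 149 in KO, so its row did not read as silent in WT. FPKM alone cannot show whether all of these reads came from this gene. *Tuba3a* was lower by more than 2-fold (log2 fold change -1.298, limma adjusted p = 0.00292). The imprinted changes ran with the lower *Dnmt3b*, *Dnmt3l* and *Trim28* values in the same libraries, and with the Y-linked genes, and whether any of these bears on the others was not tested. Markers of the formative and primed states, which follow the naive state, moved in both directions. Of 5 found, 3 were tested and all 3 passed, against 12.5% of all features. *Otx2* was lower (log2 fold change -0.78, limma adjusted p = 0.00990), and *Pou3f1* (0.79, adjusted p = 0.0187) and *Sox3* (1.10, adjusted p = 0.0133) were higher.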

How the data were processed

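The deposited files hold FPKM per feature, 1 file per library, which the authors estimated with Cufflinks 2.2.1 after alignment to GRCm38 with TopHat2 2.1.1 and Bowtie2 2.3.0. RNA had been depleted of ribosomal RNA. Read numbers cannot be recovered from these FPKM, so depth is unknown and precision was judged from the replicates alone. Starts in the files count from 0, and 1 was added to each.

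FPKM were compared as log2(FPKM + 0.1), a scale that understates the change of low genes, for 12990 of 19645 features with a mean of at least 0.5, with limma 3.58.1 (R 4.3.3), a variance trend and two-sided Benjamini-Hochberg adjustment over all tested features. The script was tested on simulated data. WT and KO were grouped by their labels. The genes and lists were chosen with earlier results of these data known. Named were all 10 genes, from the wider list those past an adjusted p of 0.05 (up to the 10 largest changes) and 6 fixed genes, and from the imprinted, germline and sex-chromosome lists the 4 largest changes over 2-fold, the Y-linked genes and *Xist*. *Aire*, *Copg2*, *Igf2os*, *Plagl1*, *Tsix*, *Arntl*, *Rpl10l* and the markers *Klf4*, *Tfcp2l1*, *Fgf4*, *Thy1*, *Sox7*, *Gata4*, *Otx2*, *Pou3f1* and *Sox3* were named outside this rule, after their values were seen. Gene positions came from GENCODE vM21 and promoters from RefSeq (9 of 10 genes matched; *Dppa3* did not), read with Python 3.11.15 and pandas 2.3.3. The proteins of the DNMT3 genes were not compared here. Alternatives were 13: pseudocounts of 1 and 0.01, no filter, a mean of at least 1, scaling by median of ratios or by quantile normalization, the replicate number as a block, no variance trend, FPKM summed by symbol, and each of 4 libraries left out.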

Additional observations from a re-analysis of the deposited data

How the results depend on the processing

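The change of *Dnmt3b* passed the test under each of the 13 alternatives. The *Dnmt3l* change stayed negative but did not pass without the filter on low values (log2 fold change -0.34), after quantile normalization (-0.26), without the variance trend (-0.34) and with each library left out (-0.37 to -0.30); that of *Trim28* behaved likewise (-0.37, -0.25, -0.37 and -0.39 to -0.36). The number of the 10 genes lower in KO therefore went from 3 to 1 without the filter, after quantile normalization and without the trend, and with a library left out it was 1, or 2 without KO replicate 2, where *Dppa3* passed. Leaving out a library leaves 1 sample in a genotype, which is then assumed to vary like the other. *Uhrf1* turned to 0.015 after quantile normalization, *Tet2* ranged from -0.0086 (without KO replicate 2) to 0.12, and *Dppa3* ranged from -0.90 to 0.017 with a library left out. *Zfp445* turned to 0.016 after quantile normalization and 0.00090 under median-of-ratios scaling, and ranged from -0.11 to 0.10 with a library left out. Without a block, 353 features were called higher and 185 lower over 2-fold; a pseudocount of 1 gave 146 and 85, and leaving out a library gave 316 to 484 and 251 to 331 (331 without WT replicate 1, 296 without WT replicate 2 and 306 without KO replicate 1). The wider list, with 7 higher and 5 lower, counted 3 and 2 without the filter, 4 and 0 without the trend, and 4 to 8 and 3 to 5 with a library left out (4 higher without KO replicate 2, 3 lower without KO replicate 1). Over all features, 951 of 19645 passed the test without the filter and 1165 of 12990 without the trend. In the main fit, 1618 of 12990 passed. The counts for the wider list are to be read beside these. The cause of the changes in the counts was not tested. Of 237 alternative values for the 10 genes, their ratios and the counts, 198 were judged the same as in the main fit. For the genes this means the same direction and side of the threshold. For the counts it means a value equal or close to the main count. The ratios were not tested and have no threshold.

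The replicate numbers in the labels are shared by both genotypes but not said to mark a common day or batch. The differences between replicates 1 and 2 in WT and in KO correlated by rank across 12990 features (Spearman rho = 0.387). The Pearson r was 0.0712. The main fit does not use this pairing by number. With the replicate block, *Tet1* passed the test at 0.20 (limma adjusted p = 0.0261), so that 1 of the 10 genes was higher and 3 were lower, and the wider list counted 14 higher and 13 lower, *Setdb1*, *Hells* and *Prdm14* among those that passed (adjusted p = 0.0252, 0.0156 and 0.0281); 4052 features passed an adjusted p of 0.05, against 1618 without it. Depth is unknown, and *Dppa3*, at 1.99 to 4.18 FPKM, had the widest interval of the 10 genes.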
